A study of Mus musculus with 12 samples.

Results

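The genes described here are 8 genes commonly used to recognise oligodendrocyte precursors, Pdgfra, Gpr17, Tnr, Lhfpl3, Olig1, Olig2, Sox10 and Cspg4. The tissue was newborn mouse cortex, from controls and from mice with the genes of histone variant H3.3 deleted in part of the cells. The 8 genes were taken by name from the 51912 genes in each count file, and the list was chosen with earlier results of these data known. All 8 had counts in all 3 groups, and 7 of them, all but Sox10, were among the 11076 genes that passed the filter on low counts. RNA came from postnatal day 0 cortex, with 4 libraries in each of 3 groups. In dKO-E, H3f3a and H3f3b were deleted with Emx1-Cre, which acts in cortical progenitors and so reaches the excitatory neurons and glia they give rise to. In dKO-N, H3f3a and H3f3b were deleted with Neurod6-Cre, which acts in excitatory neurons after their last division. The third group is labelled control, with no further genotype given. Interneurons, which migrate in from the ventral forebrain, lie outside the main reach of both drivers, and the tissue measured was whole cortex.

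Oligodendrocyte precursors divide under platelet-derived growth factor, spread through the cortex and later make myelin. In the forebrain the earlier waves come from ventral progenitors, and a later wave comes from the Emx1-expressing progenitors of the cortex itself around birth. OLIG2 specifies the lineage and SOX10 drives its later myelin programme, both as transcription factors. Several of the 8 genes are also made elsewhere: Pdgfra in fibroblasts of the meninges, Cspg4 in pericytes, the Olig genes in ventral progenitors, and Tnr in some neurons. Which cells gave the counts of each gene, Lhfpl3 included, was not measured.

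The level of the targeted gene was checked first. H3f3a stood at 22.9 to 30.0 CPM (counts per 1e+06 counts in genes, TMM-scaled) in dKO-E and at 22.1 to 37.9 CPM in dKO-N. In the libraries labelled control 2 and 4 it stood at 117 and 121 CPM. In those labelled control 1 and 3 it stood at 17.7 and 16.4 CPM, below every knockout library. The genotype of the controls is not given, so whether these levels depart from it cannot be told. Results on the members are therefore also given without those libraries. H3f3b counts were not lower in the knockouts (167 to 180 CPM in dKO-E, 111 to 146 CPM in dKO-N and 76.7 to 142.5 CPM in control). By edgeR, H3f3b was higher in dKO-E than in control (log2 fold change 0.69, adjusted p = 0.000707). In dKO-N its log2 fold change was 0.16 (adjusted p = 0.583). H3f3a did not pass the same test against control in dKO-E (-1.28, adjusted p = 0.228) or dKO-N (-0.96, adjusted p = 0.494). Whether the deleted part lies in the counted exons was not tested. The libraries held 722080 to 3502017 counts in genes, so that 3 counts equal 0.857 to 4.15 CPM. Y-linked genes were counted in dKO-E 3 and 4 and lay below 10 counts in the other 10 libraries.

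In dKO-E, 3 of the 7 tested genes were lower than in control and 1 was higher. Tnr, Pdgfra and Gpr17 fell and Lhfpl3 rose, by edgeR's quasi-likelihood test at an adjusted p under 0.05, the threshold for every call here. In dKO-N, Tnr fell and no other member passed the test. Among all genes tested, 20.2% passed in dKO-E against control (10.1% higher and 10.1% lower) and 11.3% in dKO-N against control (5.04% higher and 6.29% lower). The median log2 fold change of the 7 tested members was -0.71 in dKO-E, against 0.007 for all genes, and -0.70 in dKO-N, against 0.014 for all genes. Both comparisons use the same control libraries. In bulk tissue, fewer cells of a type and less RNA per cell cannot be told apart.

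**Figure D1:**
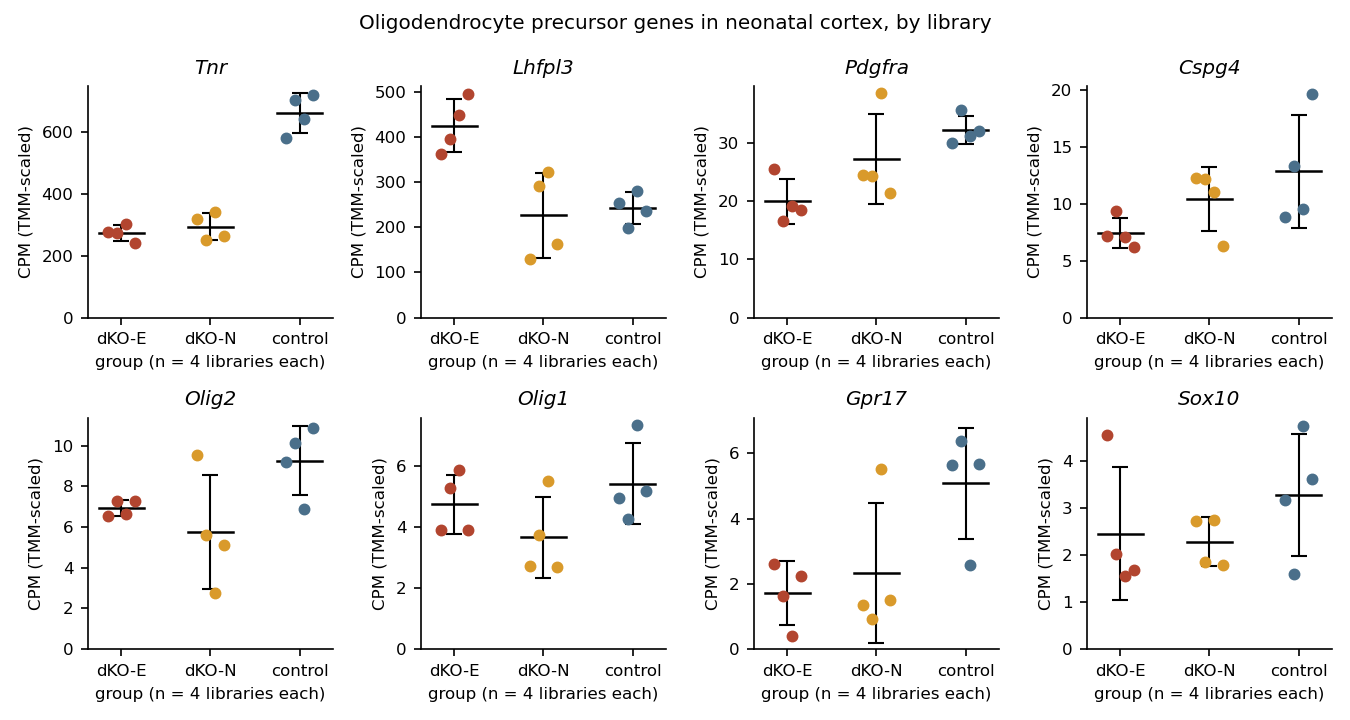
TMM-scaled CPM of the 8 genes in each library, with one panel per gene and the groups dKO-E, dKO-N and control along the axis. Points are libraries, long bars are group means and whiskers are SD (n = 4). Tnr separates both knockouts from control, Lhfpl3 separates dKO-E from the other groups, and the 6 remaining genes lie under 40 CPM.

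Tnr and Lhfpl3 held most of the signal. Of the 17936 counts on the 8 genes, 54.4% were on Tnr and 38.7% on Lhfpl3, and Pdgfra came next with 3.3%. Both are also very long genes, at 408 kb and 529.5 kb. Per kilobase of exon, Lhfpl3 ranked first in every group, with mean levels of 132.5 CPM per kb in dKO-E, 70.5 in dKO-N and 75.4 in control. Tnr followed, with 21.2 CPM per exonic kb in dKO-E, 22.8 in dKO-N and 51.3 in control. Olig2, Pdgfra and Olig1 came next at 1.70 to 3.66 CPM per exonic kb, and their library ranges overlapped between neighbours in the order. Sox10, Cspg4 and Gpr17 stood last at 0.33 to 1.08 CPM per exonic kb, with Sox10 and Cspg4 overlapping in every group. In dKO-E, Gpr17 lay below Cspg4 without overlap.

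That order depends on the length used. Per kilobase of the whole gene, introns included, Olig1 and Olig2 ranked above Tnr and Lhfpl3 in every group. On that scale Olig2 averaged 2.15 CPM per kb in dKO-E, 1.78 in dKO-N and 2.88 in control, and Tnr averaged 0.67 in dKO-E, 0.72 in dKO-N and 1.62 in control. Whether reads in introns were counted is not given in the sources used here. Where they are counted, dividing by exon length raises long genes such as Tnr and Lhfpl3. Sox2 shares no exons with Sox2ot, which overlaps it on the same strand. Sox2 was at 0 in all libraries, and Sox2ot had 18763 counts. By contrast, 6030443J06Rik, which overlaps Lhfpl3 on the same strand without sharing exons, had 309 counts. The way introns were counted was not tested.

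The windows just before the start of Tnr, Lhfpl3 and Pdgfra are shown because these 3 genes moved in dKO-E in different directions. They hold 250 bases before the RefSeq start on GRCm38.p6, the plus strand, 5′ to 3′, at chr1:159523519-159523768 for Tnr, chr5:22745804-22746053 for Lhfpl3 and chr5:75152001-75152250 for Pdgfra. Capitals mark matches on either strand to the E-box CANNTG, the kind of site that OLIG proteins bind, and to ACAANG, a core that SOX proteins bind.
Tnr: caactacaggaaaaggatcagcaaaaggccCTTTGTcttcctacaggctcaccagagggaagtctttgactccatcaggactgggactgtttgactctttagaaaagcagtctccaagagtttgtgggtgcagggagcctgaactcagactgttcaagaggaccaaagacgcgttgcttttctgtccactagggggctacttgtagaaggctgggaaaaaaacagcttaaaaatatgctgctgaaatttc
Lhfpl3: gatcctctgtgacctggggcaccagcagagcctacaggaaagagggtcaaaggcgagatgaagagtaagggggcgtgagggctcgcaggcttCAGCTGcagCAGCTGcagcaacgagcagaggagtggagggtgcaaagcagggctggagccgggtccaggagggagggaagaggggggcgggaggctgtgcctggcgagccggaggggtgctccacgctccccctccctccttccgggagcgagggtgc
Pdgfra: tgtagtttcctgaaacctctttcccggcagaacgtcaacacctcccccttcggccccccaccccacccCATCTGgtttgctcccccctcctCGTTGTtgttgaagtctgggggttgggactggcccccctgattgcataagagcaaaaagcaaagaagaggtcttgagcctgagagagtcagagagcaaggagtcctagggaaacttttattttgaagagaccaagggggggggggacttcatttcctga
The Lhfpl3 window held 2 E-boxes, both CAGCTG, and no SOX core. The Tnr window held 1 SOX core and no E-box, and the Pdgfra window held 1 of each. No match to one motif overlapped a match to the other in these windows. Of 32851 mouse windows of the same length, 66.2% held at least 1 E-box and 36.3% at least 1 SOX core. A window was at hand for 5 of the 8 genes. No binding was measured in these libraries, and the matches are a description of the letters.

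Tnr encodes tenascin-R, a glycoprotein of the extracellular matrix that is part of perineuronal nets (chr1:159523769-159931729 on mm10, plus strand, annotated as protein coding). Its CPM were 277, 273.5, 301 and 241 in dKO-E libraries 1 to 4. In dKO-N they were 320, 251, 340.5 and 263 CPM, and in control 580, 701, 640.5 and 719 CPM. Every knockout library of either kind lay below every control library, a separation seen for 13.0% of genes in dKO-E and 7.19% in dKO-N. Tnr was 2.41-fold lower in dKO-E than in control (-1.27 on the log2 scale, SE 0.0993, adjusted p = 1.57e-12). For dKO-N it was 2.27-fold lower (-1.18 on the log2 scale, SE 0.102, adjusted p = 4.54e-11). Without the libraries labelled control 1 and 3 the dKO-E value was -1.38 (adjusted p = 9.18e-11) and the dKO-N value -1.30 (adjusted p = 1.34e-09). The call held in each of the 12 fits that left out 1 library. Between dKO-E and dKO-N the difference was -0.08 on the log2 scale, with a 95% interval of -0.30 to 0.13 (adjusted p = 0.688).

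Markers of the neurons that can make Tnr did not all move alike. The 16 interneuron markers summed to 4056 to 4778 CPM in dKO-E, 4616 to 5262 in dKO-N and 4316 to 5495 in control, ranges that overlap, and none of the 16 was at 0 in a whole group. Among the 13 tested in each comparison, Npy, a neuropeptide gene, fell in both knockouts (log2 fold change -2.23 in dKO-E and -1.89 in dKO-N). The 12 excitatory neuron markers summed to 2694 to 3443 CPM in dKO-E, 3633 to 4464 in dKO-N and 5477 to 6425 in control, with no overlap between groups, and none was at 0. Of those 12 genes, 8 fell and 1 rose in dKO-E, and 4 fell and 1 rose in dKO-N. Among all genes tested, 10.1% fell and 10.1% rose in dKO-E, and 6.29% fell and 5.04% rose in dKO-N. Rorb, a layer 4 transcription factor, fell in both (log2 fold change -1.33 in dKO-E and -0.77 in dKO-N). The part of these markers in the fall of Tnr was not tested.

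Lhfpl3 encodes a membrane protein of the LHFPL family, related to the tetraspan proteins (chr5:22746059-23275597, plus strand, protein coding). Its CPM were 362.5, 397, 449 and 495 in dKO-E libraries 1 to 4. They were 129, 292, 323 and 162.5 CPM in dKO-N, against 253, 198, 282 and 237 CPM in control. Every dKO-E library lay above every control library and above every dKO-N library, while the dKO-N libraries lay on both sides of the control range. Groups separated in this way, with dKO-E above, for 12.5% of genes against control and 5.4% against dKO-N; the shares for dKO-N above control and for dKO-E below dKO-N were 5.84% and 4.8%. Lhfpl3 averaged 426 ± 58.2 CPM in dKO-E and 242 ± 35.0 CPM in control (SD, n = 4 each), a 1.75-fold rise (log2 fold change 0.81, SE 0.248, edgeR adjusted p = 0.0465).

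The rise of Lhfpl3 in dKO-E passed the test narrowly. The call was lost in 8 of 12 fits that left out 1 library, namely any control or any dKO-E library (adjusted p of 0.0591 to 0.117, log2 fold changes of 0.72 to 0.89 over all 12 fits), without the libraries labelled control 1 and 3 (0.97, adjusted p = 0.145), and with sex as a covariate (0.65, adjusted p = 0.228). In dKO-N the log2 fold change was -0.13 (95% interval -0.72 to 0.47, adjusted p = 0.843). Between the knockouts, Lhfpl3 was 1.92-fold as high in dKO-E, a log2 difference of 0.94 (SE 0.262, edgeR adjusted p = 0.0651) that did not pass the test. That difference passed without dKO-N 2 (1.10, adjusted p = 0.042) or dKO-N 3 (1.13, adjusted p = 0.0304). A long noncoding gene on the same strand, 6030443J06Rik, lies inside Lhfpl3 without sharing exons and had 309 counts over all 12 libraries.

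Because Tnr and Lhfpl3 moved in opposite directions in dKO-E, their ratio of counts within a library differed between groups. There were 1.31, 1.45, 1.49 and 2.05 Lhfpl3 counts per Tnr count in dKO-E libraries 1 to 4. The ratios were 0.404, 1.16, 0.947 and 0.618 in dKO-N, and 0.436, 0.282, 0.440 and 0.330 in control. Every dKO-E library lay above every control library. That follows from the separations of Tnr and Lhfpl3 given above and is no further support for either change. Every dKO-E library also lay above every dKO-N library. In dKO-N, 3 of 4 libraries lay above the control range and dKO-N 1 lay within it. These ratios need no scaling between libraries.

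**Figure D2:**
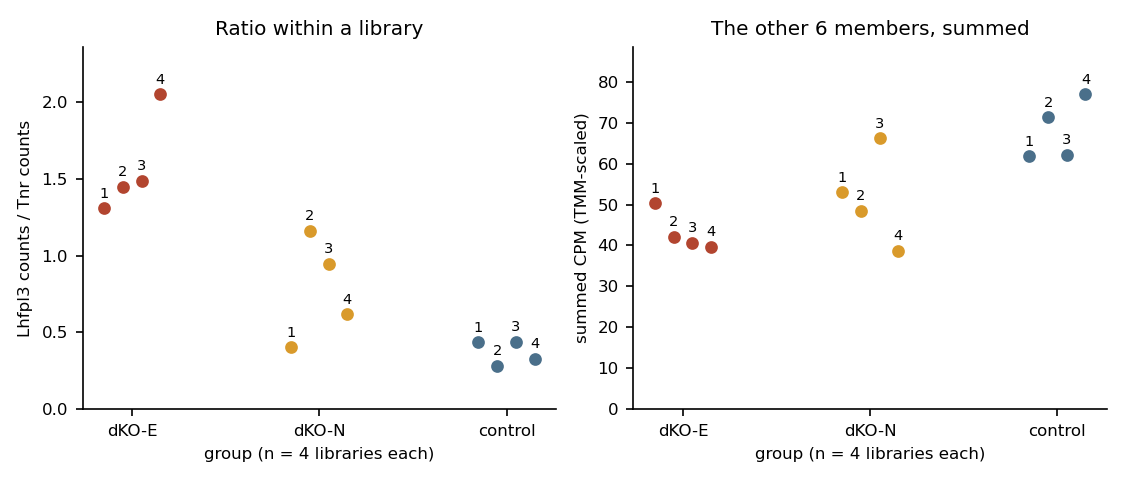
Left, Lhfpl3 counts divided by Tnr counts within each library; right, the summed TMM-scaled CPM of Pdgfra, Cspg4, Olig1, Olig2, Sox10 and Gpr17. Points are libraries, numbered as labelled, for dKO-E, dKO-N and control. The ratio is highest in the 4 dKO-E libraries (1.31 to 2.05), and the sum is lower in all dKO-E libraries (39.7 to 50.3 CPM) than in any control library (61.8 to 77.0 CPM).

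Pdgfra, the receptor through which platelet-derived growth factor drives precursor division, is annotated at chr5:75152292-75198215 (plus strand, protein coding). It measured 25.5, 16.6, 19.2 and 18.5 CPM in dKO-E. It measured 24.5, 24.3, 38.6 and 21.3 CPM in dKO-N, against 30.0, 35.7, 31.1 and 32.0 CPM in control. All dKO-E libraries lay below all control libraries, a separation seen for 13.0% of all genes tested. In dKO-N, library 3 lay above the control range and the other libraries below it. Pdgfra averaged 19.9 ± 3.85 CPM in dKO-E and 32.2 ± 2.46 CPM in control (SD, n = 4 each), a 1.64-fold fall (log2 fold change -0.71, SE 0.178, edgeR adjusted p = 0.0034). The call held in all 12 fits that left out 1 library and without the libraries labelled control 1 and 3 (-0.79, adjusted p = 0.0191), and was lost with sex as a covariate (-0.65, adjusted p = 0.0579). In dKO-N the log2 fold change was -0.34 (95% interval -0.72 to 0.05, adjusted p = 0.296), and the difference between dKO-E and dKO-N, -0.37 (-0.78 to 0.04), did not pass the test either (adjusted p = 0.279).

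Fibroblasts of the meninges also carry PDGFRA, so their markers are given here. The 14 fibroblast and meninges markers summed to 82.2 to 199 CPM in dKO-E (highest in dKO-E 1), 71.8 to 96.1 in dKO-N and 34.6 to 55.8 in control. Of these, 3 passed the filter and 1, the matrix gene Fbln1, rose in both knockouts (log2 fold change 1.67 in dKO-E and 1.43 in dKO-N). Fbln1 alone averaged 73.0 ± 5.48 CPM in dKO-E, 61.2 ± 9.98 CPM in dKO-N and 23.4 ± 7.62 CPM in control (SD, n = 4 each), a large share of each sum. The other tested genes, Igf2 (log2 fold change 0.90 in dKO-E and 0.10 in dKO-N) and Islr (0.06 and -0.31), did not pass the test and are named outside the rule for named genes. Without the filter, 6 of the 14 passed the test in dKO-E and 2 in dKO-N. In dKO-N, 3 of the 14 were at 0 in all 4 libraries, against 1 in control and none in dKO-E. The part of these cells in the level of Pdgfra was not tested.

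The ligands of the receptor were measured too. Pdgfc, which encodes a growth factor of the same family, averaged 91.3 ± 6.76 CPM in dKO-E, 84.0 ± 20.7 in dKO-N and 139 ± 9.97 in control (SD, n = 4 each) and fell in both knockouts (dKO-E -0.60 on the log2 scale, adjusted p = 0.000601; dKO-N -0.82, adjusted p = 6.13e-05, both by edgeR). Pdgfa, the main mitogen of precursors, is named outside the rule for named genes. Its log2 fold change was -0.78 in dKO-E, where adjusted p = 0.0823, and -0.91 in dKO-N, where adjusted p = 0.106, neither past the threshold.

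Cspg4 encodes NG2, a membrane proteoglycan of precursors and pericytes (chr9:56865033-56899870, plus strand, protein coding). It measured 7.19, 9.32, 7.03 and 6.15 CPM in dKO-E, 12.2, 12.1, 11.03 and 6.31 CPM in dKO-N, and 8.83, 13.3, 9.50 and 19.6 CPM in control. In dKO-E, 3 of 4 libraries lay below the control range, and control 4 stood well above the other control libraries. The log2 fold changes were -0.73 in dKO-E (95% interval -1.32 to -0.15, adjusted p = 0.0698) and -0.43 in dKO-N (-1.06 to 0.20, adjusted p = 0.458). The dKO-E difference passed the test without the libraries labelled control 1 and 3 (-1.13, adjusted p = 0.0202), and also without control 1 (-0.90, adjusted p = 0.0417) or dKO-N 4 (adjusted p = 0.0421). The 10 pericyte markers summed to 48.1 to 65.3 CPM in dKO-E, 38.2 to 58.5 in dKO-N and 58.6 to 67.8 in control. Rgs5, a pericyte marker, fell in dKO-E (-0.68, adjusted p = 0.0302), a call lost in 3 of 12 fits that left out 1 library. None of the 10 was at 0 in every library, 1 was at 0 throughout dKO-N, and their part in the level of Cspg4 was not tested.

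Olig2 and Olig1, basic helix-loop-helix factors that lie next to each other on chromosome 16 (chr16:91225457-91228677 and chr16:91269772-91271933, both plus strand, protein coding), did not pass the test in any comparison. Olig2 measured 6.53, 7.29, 6.64 and 7.27 CPM in dKO-E, 9.52, 5.60, 2.76 and 5.11 in dKO-N, and 9.18, 10.1, 6.91 and 10.9 in control. The groups overlap, although 2 dKO-E and 3 dKO-N libraries lay below the whole control range. Its log2 fold changes were -0.40 in dKO-E (95% interval -0.99 to 0.19, adjusted p = 0.37) and -0.73 in dKO-N (-1.41 to -0.04, adjusted p = 0.183).

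Olig1 measured 3.92, 5.27, 5.86 and 3.92 CPM in dKO-E, 2.72, 3.73, 5.51 and 2.70 in dKO-N, and 4.94, 4.26, 7.34 and 5.17 in control, again with overlapping groups. Its log2 fold changes were -0.16 in dKO-E (-0.88 to 0.55, adjusted p = 0.793) and -0.70 in dKO-N (-1.56 to 0.15, adjusted p = 0.332). At 2 to 26 counts per library for these factors, the intervals are wide. The Olig3 gene, their nearest relative, was at 0 in all 12 libraries.

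Gpr17, which marks the step towards maturing cells, and Sox10 were close to the floor of detection. Gpr17 encodes a G protein-coupled receptor that appears transiently as precursors commit and restrains their maturation (chr18:31942997-31949636, minus strand, protein coding). Its raw counts were 4, 4, 1 and 4 in dKO-E, 1, 1, 4 and 5 in dKO-N, and 16, 12, 6 and 11 in control. In CPM these are 2.61, 1.62, 0.391 and 2.24 in dKO-E, 1.36, 0.933, 5.51 and 1.5 in dKO-N, and 5.65, 6.39, 2.59 and 5.68 in control. All but 1 library of each knockout lay below the control range. Gpr17 fell in dKO-E, with a fitted log2 fold change of -1.64 (95% interval -2.67 to -0.60, adjusted p = 0.0193 by edgeR's quasi-likelihood test), from 13 counts in dKO-E and 45 in control. The dKO-N change of -1.36 (-2.47 to -0.25, 11 counts) did not pass (adjusted p = 0.114).

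The Gpr17 calls moved with single libraries. In dKO-E the call was lost in 5 of 12 fits that left out 1 library, those without control 1, 2 or 4 or without dKO-E 2 or 3 (adjusted p of 0.0521 to 0.112). It was also lost without the libraries labelled control 1 and 3 (-1.89, adjusted p = 0.0541) and with sex as a covariate (-1.29, adjusted p = 0.199). In dKO-N it was gained without dKO-N 3 (-1.86, adjusted p = 0.045). Exons of Gpr17 overlap those of Lims2 on the opposite strand, which had 80 counts over all libraries, and the use of strand in counting is not given in the sources used here.

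Sox10 (chr15:79154908-79165240, minus strand, protein coding) had 2 to 11 counts per library and failed the filter. It measured 4.57, 2.03, 1.56 and 1.68 CPM in dKO-E, 2.72, 1.87, 2.76 and 1.80 in dKO-N, and 3.18, 1.60, 4.75 and 3.62 in control. The groups overlap throughout. In the fit without a filter its log2 fold changes were -0.52 in dKO-E (95% interval -1.55 to 0.51, adjusted p = 0.585) and -0.68 in dKO-N (-1.83 to 0.48, adjusted p = 0.66), so a difference was not detectable at this depth.

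**Figure D3:**
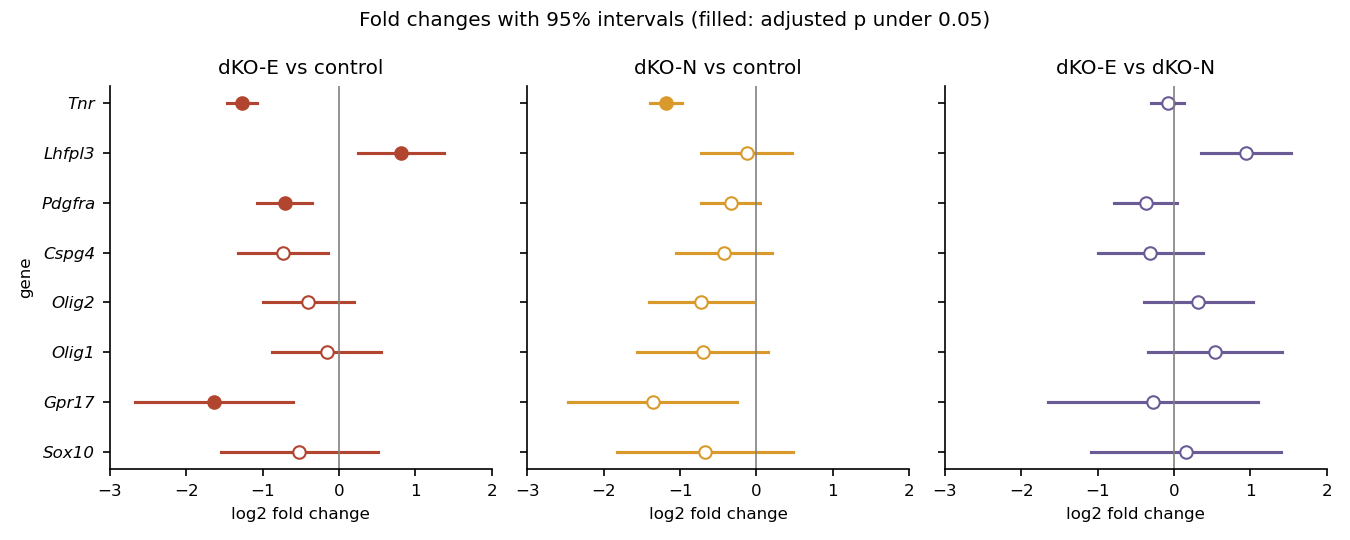
Log2 fold changes of the 8 genes with 95% intervals from edgeR, for dKO-E against control, dKO-N against control and dKO-E against dKO-N. Filled points passed the adjusted p of 0.05, and Sox10 comes from the fit without a filter on low counts. Tnr is the narrowest interval in each panel, and Lhfpl3 is the only filled point above 0.

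Summed per library, the 6 less abundant genes gave 43.2 ± 4.84 CPM in dKO-E, 51.6 ± 11.4 CPM in dKO-N and 68.1 ± 7.39 CPM in control (SD, n = 4 each). The dKO-E libraries lay at 50.3, 42.1, 40.6 and 39.7 CPM and the dKO-N libraries at 53.1, 48.5, 66.2 and 38.8 CPM, against 61.8, 71.4, 62.2 and 77.0 CPM in control. All dKO-E libraries and 3 of 4 dKO-N libraries were below the control range. Pdgfra, itself separated from control in dKO-E, gives the largest share of this sum. How often such sums separate among other genes was not computed. The libraries labelled control 1 and 3 held the lower values of their group.

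No member passed the test between dKO-E and dKO-N, where 6.84% of all genes did (3.11% higher and 3.73% lower in dKO-E). By edgeR without adjustment, 1 of the 7 tested members, Lhfpl3, had a p under 0.05, and DESeq2 called that 1 as well (log2 difference 0.91, adjusted p = 0.0233). Olig1 and Olig2 had log2 differences of 0.54 (95% interval -0.34 to 1.41) and 0.32 (-0.39 to 1.04), Gpr17 one of -0.28 (-1.65 to 1.10) and Cspg4 one of -0.31 (-0.99 to 0.38).

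Other genes of the lineage were read from lists drawn up by role, and which cells made their RNA was not measured. Of 18 other genes enriched in precursors, 13 were tested; 5 fell and 1 rose in dKO-E, and 4 fell and 1 rose in dKO-N, against the shares of all genes given above. The same shares stand beside the counts of the lists that follow. For the other precursor genes the median log2 fold change was -0.11 in dKO-E and -0.22 in dKO-N. Pcdh15, a protocadherin, averaged 305 ± 72.5 CPM in dKO-E, 245 ± 32.3 CPM in dKO-N and 781 ± 58.3 CPM in control (SD, n = 4 each). It fell in both knockouts in edgeR's test (dKO-E -1.37 on the log2 scale, adjusted p = 3.9e-09; dKO-N -1.69, adjusted p = 3.75e-10). Sulf2, an enzyme that trims heparan sulfate, fell in both as well (-1.56 and -1.15).

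Luzp2, a leucine zipper protein gene, differed between the knockouts. It averaged 248 ± 8.50 CPM in dKO-E, 448 ± 90.6 CPM in dKO-N and 525 ± 66.8 CPM in control (SD, n = 4 each), and the dKO-E level was below that of dKO-N by edgeR's test of the difference (-0.87 on the log2 scale, adjusted p = 1.86e-05). Megf11 rose in dKO-E (0.69, adjusted p = 0.0239), a call lost without control 1, control 4 or dKO-E 1. The sialidase gene Neu4, another precursor gene, was at 0 in all 12 libraries.

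**Figure D4:**
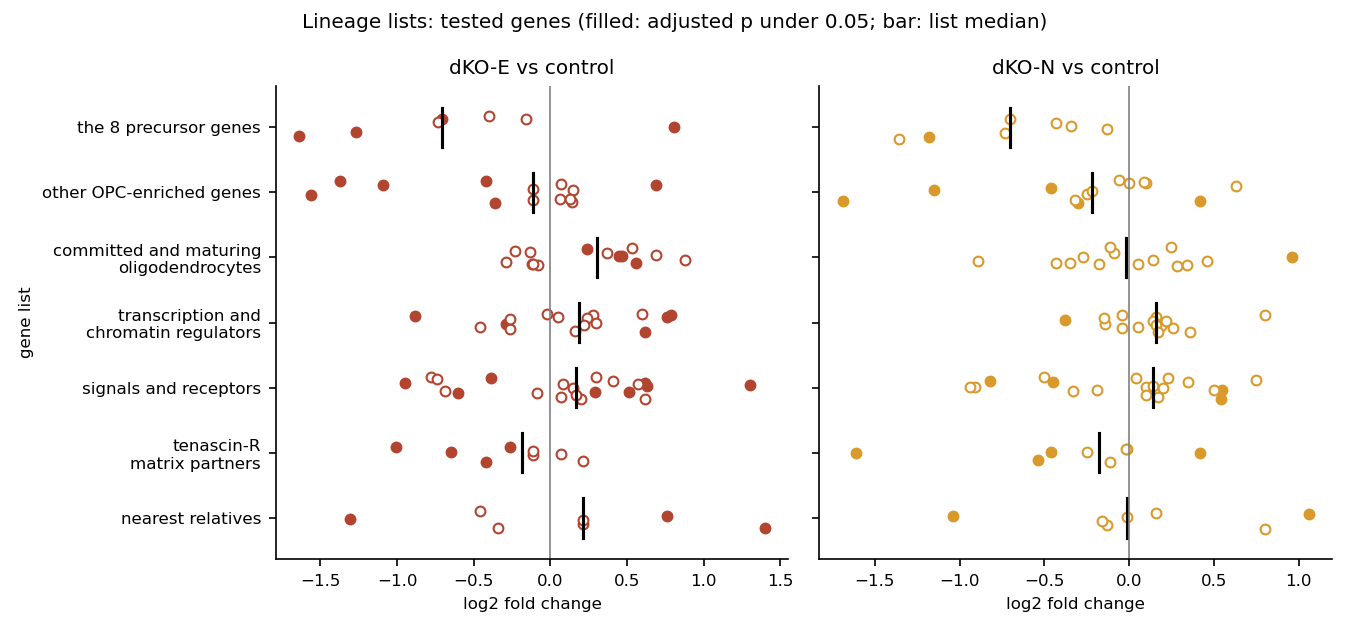
Log2 fold changes of the tested genes of each list, for dKO-E against control (left) and dKO-N against control (right). Each point is a gene, filled points passed the adjusted p of 0.05, and black bars are list medians. The 8 precursor genes have medians of -0.71 in dKO-E and -0.70 in dKO-N, and the committed and maturing genes 0.30 and -0.02.

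Genes of committed and maturing oligodendrocytes that passed the test in dKO-E were all higher than in control. In dKO-N only Cd9 passed. Tested genes that did not pass lay on both sides of 0 in each comparison with control. Of 24 listed, 14 were tested; 4 rose in dKO-E and 1 in dKO-N, with medians of 0.30 and -0.02. Those that rose in dKO-E were Rras2 (log2 fold change 0.56), a small GTPase, Sema4d (0.47), a semaphorin, Tns3 (0.45), a focal adhesion protein, and Fyn, a kinase of myelinating cells that neurons also express. Rras2 and Sema4d were also higher in dKO-E than in dKO-N (log2 differences 0.65 and 0.41), the Sema4d difference being lost in 4 of 12 fits that left out 1 library. Tns3 lost its call without control 1, control 2 or dKO-E 1. Cd9, a tetraspanin, rose in dKO-N (0.96, adjusted p = 0.00392), a call lost without dKO-N 4. The myelin gene Mobp was at 0 in all libraries.

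Of 20 transcription and chromatin regulators of the lineage, 16 were tested; 3 rose and 2 fell in dKO-E, and 1 fell in dKO-N. Zeb2, a zinc finger factor needed for myelination and also abundant in neurons, averaged 1031 ± 114 CPM in dKO-E, 1460 ± 189 CPM in dKO-N and 1904 ± 161 CPM in control (SD, n = 4 each). It fell in dKO-E (-0.88) and in dKO-N (-0.38), and the dKO-N call was lost without the libraries labelled control 1 and 3 (adjusted p = 0.129). Id4 (0.79), an inhibitor of helix-loop-helix factors, Sox9 (0.76), a glial factor, and Chd7 (0.62), a chromatin remodeller, rose in dKO-E. Each of these 3 calls was lost in 2 to 5 of the 12 fits that left out 1 library.

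Signals and receptors of precursor growth moved in both directions. Of 26 listed, 21 were tested; 5 rose and 3 fell in dKO-E, and 2 rose and 2 fell in dKO-N. Beside Pdgfc, Lpar1, a lysophosphatidic acid receptor, rose in dKO-E (1.30, adjusted p = 0.00721), a call lost without dKO-E 1. Notch1, a receptor that holds precursors undifferentiated, rose in dKO-E (0.63, adjusted p = 0.00514), a call lost without the libraries labelled control 1 and 3 (adjusted p = 0.067). The chemokine receptor gene Cxcr4 fell in dKO-E (-0.95, adjusted p = 0.04), a call lost in 5 of 12 fits that left out 1 library.

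Among 12 matrix and membrane partners of tenascin-R, 8 were tested; 4 fell in dKO-E, and 3 fell and 1 rose in dKO-N. Cntn1, the contactin receptor for tenascin-R on neurons, averaged 279 ± 19.5 CPM in dKO-E, 303 ± 24.0 CPM in dKO-N and 437 ± 34.1 CPM in control (SD, n = 4 each). By edgeR's test it fell by 0.65 on the log2 scale in dKO-E, with adjusted p = 6.67e-07, and its dKO-N value was -0.54, with adjusted p = 4.76e-05. Bcan, the net proteoglycan brevican, fell in both knockouts (-0.42 and -0.46), calls lost in 5 and 8 of 12 fits that left out 1 library. Has3, a hyaluronan synthase, fell in both as well (-1.01 and -1.61), the first call being lost in 8 of those fits. Ptprz1, a receptor phosphatase of precursors and radial glia, rose in dKO-N (0.42, adjusted p = 0.00317).

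Of 12 close relatives of the members, 7 were tested; 2 rose and 1 fell in dKO-E, and 1 rose and 1 fell in dKO-N. The LHFPL family, to which Lhfpl3 belongs, moved in both directions. Lhfpl2 averaged 67.9 ± 8.26 CPM in dKO-E, 52.9 ± 10.3 CPM in dKO-N and 25.9 ± 5.85 CPM in control (SD, n = 4 each), and rose in both knockouts (1.40 and 1.06). Lhfp averaged 85.8 ± 13.2 CPM in dKO-E, 100.3 ± 21.2 CPM in dKO-N and 214 ± 18.7 CPM in control, and fell in both (-1.31 and -1.04). All 4 of these calls held in the 12 fits that left out 1 library.

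Markers of the other glia and progenitors are given beside these lists. The 11 radial glia markers summed to 467 to 584 CPM in dKO-E, 518 to 630 in dKO-N and 345 to 429 in control. Of the 8 tested, 2 rose in dKO-E and 4 in dKO-N, among them Notch2 (0.83 in dKO-E and 0.88 in dKO-N), and Sox2 was at 0 in all libraries, inside the overlapping transcript Sox2ot with 18763 counts. The 11 astrocyte markers summed to 375.5 to 505 CPM in dKO-E, 346 to 482.5 in dKO-N and 381 to 425 in control. Aldh1l1 rose in dKO-E (0.89), the sole astrocyte call against control among 9 tested. The 10 microglia markers summed to 30.2 to 40.5 CPM in dKO-E, 30.8 to 45.7 in dKO-N and 23.4 to 29.8 in control, and Csf1r rose in dKO-E (1.35). Their part in the members' levels was not tested.

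Likeness between patterns was measured as the root mean square difference of log2 CPM, each gene centred on its own mean over the 12 libraries. Closest to Tnr were Zbtb18, a neuronal transcription factor (0.132), and Frmd4a (0.147), where the median over 9253 genes was 0.647. Zbtb18 had log2 fold changes of -1.26 in dKO-E and -1.11 in dKO-N. Closest to Lhfpl3 were Ero1lb (0.167) and the activin receptor gene Acvr2a (0.246), where the median was 0.614. Pdgfra was closest to Mark2 (0.156) and B4galt5 (0.167), with a median of 0.444. Cspg4 was closest to Eif3i (0.186) and Camkv (0.205), Olig2 to Syngr3 (0.183) and Cplx1 (0.209), and Olig1 to Ncbp2 (0.158) and Arpc5l (0.175). Gpr17 had no close match: the nearest, Spred3, was 0.438 away.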

How the data were processed

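Each library has 1 deposited file of raw, unscaled counts by gene, from ClickSeq libraries of ribosomal RNA-depleted RNA. Per the submitters' processing notes, the authors used STAR, UMI-tools and HTSeq with mm10; versions, annotation and options for strand and introns were not given in the sources used here. UMIs mark single molecules, and intervals cover counting error and spread between libraries only. Lines that name no gene were left out (reads without a feature 6.65% to 8.94% of a library, ambiguous 2% to 2.2%, mapped to several places 2.3% to 4.16%). Names and positions came from GENCODE M21 (99.5% of IDs matched) and promoter windows from RefSeq on GRCm38.p6.

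Counts were scaled by TMM, filtered with filterByExpr (minimum count 10) and tested with edgeR 4.0.16 in R 4.3.3 (glmQLFit, robust, and glmQLFTest) in 1 fit of all 12 libraries. P-values were adjusted by Benjamini-Hochberg over the 11076 genes tested, with a threshold of 0.05, and CPM are TMM-scaled. In data simulated with these libraries' means, with a mean of 10800 genes tested, the test recovered 43.9% of 1.5-fold, 74% of 2-fold and 95.2% of 4-fold changes in dKO-E against control, and 40.6%, 75.2% and 95.5% in dKO-N against control, with 5.19% and 5.92% false calls. Separate animals are not stated in the labels, so a p-value measures spread among libraries that may be technical. No 2 libraries of a group were alike within sampling noise (chi-square over degrees of freedom 1.62 to 5.99).

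Alternatives were RLE size factors, library totals, no filter, DESeq2 1.42.0, each library left out, the libraries labelled control 1 and 3 left out, a replicate block, thinning to 722080 counts and sex as a covariate. The members and lists were chosen with earlier results of these data known. All members are named; other lists give up to 4 called genes with the largest fold change, and the nearest patterns are the 2 closest named genes per member. A gene that the rule would name is not reported here. Other assays of the study were not analysed here.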

Additional observations from a re-analysis of the deposited data

Results flagged for a closer look

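In 2 of the 24 sets of 4 libraries checked, 1 for each member and group, a single library lay far from the rest by Dixon's criterion. Chance gives about 1 in 20. Gpr17 in dKO-N 3 stood at 5.51 CPM (4 counts), with its 3 companions between 0.933 and 1.5 CPM, and without dKO-N 3 the fall of Gpr17 in dKO-N passed the test. Sox10 in dKO-E 1 stood at 4.57 CPM (7 counts), with its 3 companions between 1.56 and 2.03 CPM. The same dKO-E 1 library had the highest summed fibroblast and meninges markers (199 CPM); the part of these cells in its Sox10 count was not tested. Both values rest on fewer than 10 counts.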

How the results depend on the processing

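The fall of Tnr in both knockouts kept its direction and its call under every alternative run. With library totals in place of TMM all member calls stayed as they were, while the median log2 fold change of all genes in dKO-E against control shifted to 0.135 and the share of called genes that were higher became 73.9% in dKO-E (50% with TMM), 57.8% in dKO-N (44.5%) and, between the knockouts, 65.4% (45.5%). Genes called in dKO-E against control numbered 1325 with sex as a covariate, 1267 after thinning and 1215 without the libraries labelled control 1 and 3, against 2238 in the main analysis. In dKO-N they numbered 766 after thinning and 756 without those 2 control libraries, against 1255. Between the knockouts there were 500 with the replicate block, 223 with the sex covariate and 300 after thinning, against 758. Leaving out 1 library gave 1699 to 2753, 972 to 1298 and 300 to 1036 genes for these 3 comparisons, and 2 to 5, 1 to 2 and 0 to 1 called members. Members called in dKO-E against control, 4 in the main analysis, were 1 with the sex covariate (Tnr) and 2 after thinning (Tnr and Pdgfra); between the knockouts 1 member, Lhfpl3, was called with no filter (0.97, adjusted p = 0.0187) and with DESeq2. The replicate numbers are shared by the groups, but same-numbered libraries did not deviate together (correlations of -0.12 to 0.01, no library closest to its own number); with the replicate block Lhfpl3 in dKO-E had a log2 fold change of 0.80 (adjusted p = 0.061), and no other member call changed. Thinning lowered it to 0.70 (adjusted p = 0.12).

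Signs changed for values near 0 that passed no test. Lhfpl3 in dKO-N turned to 0.03 without dKO-N 1, 0.04 without dKO-N 4 and 0.03 without the libraries labelled control 1 and 3, and reached -0.33 without dKO-N 3. Olig1 in dKO-E turned to 0.01 without control 3 and to 0.04 without control 1 and 3, and reached -0.29 without dKO-E 3. Gpr17 between the knockouts turned to 0.22 without dKO-N 3, 0.11 without dKO-E 3 and 0.07 with the sex covariate, and reached -0.58 without dKO-N 4. The cause was not tested. Of the named list calls, 21 of 32 in dKO-E, 15 of 21 in dKO-N and 4 of 9 between the knockouts held in all 12 fits that left out 1 library. Without the libraries labelled control 1 and 3, 19, 16 and 7 of them passed, with Sox9, Id4, Chd7, Lpar1, Cxcr4, Megf11, Tns3, Csf1r, Notch1 and Rgs5 among those lost in dKO-E. Depth limits Gpr17, Sox10, Olig1 and Olig2 most: after thinning, Gpr17, Olig1, Olig2 and Cspg4 failed the filter and gave no value. Sex could be estimated within dKO-E alone, where both classes occur.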
